A study of Homo sapiens with 6 samples.

Results

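The genes described are 10 keratins: KRT5, KRT14, KRT6A, KRT16, KRT17, KRT7, KRT8, KRT18, KRT19 and KRT13. They were picked by name, and all 10 were found among the 21462 genes of the count table. Keratins are the intermediate filament proteins of epithelia, and desmosomes anchor their filaments at the cell surface. A filament is built from dimers of a type I and a type II chain, so the genes are usually described in partner sets. KRT5 with KRT14 marks basal keratinocytes, KRT6A with KRT16 and KRT17 appears in wounded or stressed epidermis, KRT8 with KRT18 and KRT7 with KRT19 are typical of simple epithelia, and KRT13 is a type I chain of stratified mucosa.

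RNA was sequenced from A431 cells, a human epidermoid carcinoma line, with 3 libraries of control cells (A431CT, labelled WT) and 3 of cells in which the desmosomal cadherin gene DSG2 was knocked out (Dsg2KO). Both were grown in DMEM with fetal bovine serum and received no treatment named in the labels. The methods trace both lines to CRISPR/Cas9 editing, and the number of edited clones is not given in the sources used here. Loss of DSG2 and any other difference between the lines cannot be told apart. The study describes the 3 libraries of a line as biological replicates, and p-values measure the spread between them. Libraries held 12845719 to 16255692 counts. The variance between replicates was 2.66 to 4.2 times that of counting error (chi-square per degree of freedom), so none was a copy of another. DSG2 in Dsg2KO cells was at 16.1% of its control level.

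Levels are given as CPM, that is counts scaled to a common library total with the TMM factors of edgeR. Differences were tested with edgeR's quasi-likelihood test and Benjamini-Hochberg adjustment over the 12857 genes with enough counts. A gene is said to be called when its adjusted p-value was below 0.05 and its log2 fold change (Dsg2KO over A431CT) reached 0.5 in either direction.

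Several keratins are near copies of each other, so the bases that separate them decide which gene a read is counted for. The coding sequence of KRT14 was identical to that of KRT16 at 88.5% of aligned bases and to that of KRT17 at 84.8%. KRT6A matched KRT6B at 97.5% and KRT6C at 97.9%. The 60 coding bases with the most differences in each set are shown, from GENCODE version 44 transcripts (GRCh38), with capitals at the positions that are not the same in all 3 genes of a set.

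KRT14: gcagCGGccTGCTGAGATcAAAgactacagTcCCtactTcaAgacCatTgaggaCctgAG
KRT16: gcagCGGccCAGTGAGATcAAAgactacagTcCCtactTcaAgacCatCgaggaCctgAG
KRT17: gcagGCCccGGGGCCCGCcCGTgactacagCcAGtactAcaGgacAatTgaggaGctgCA
KRT6A: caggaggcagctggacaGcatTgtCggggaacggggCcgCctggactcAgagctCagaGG
KRT6B: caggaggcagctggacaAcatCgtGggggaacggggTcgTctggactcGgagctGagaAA
KRT6C: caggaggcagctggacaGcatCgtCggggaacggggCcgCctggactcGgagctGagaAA

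Counted from the start codon, these stretches begin at base 459 in KRT14, 465 in KRT16, 366 in KRT17 and 663 in the KRT6 genes. Of the 25 positions in capitals in the type I set, 4 separate KRT14 from KRT16 and 23 separate it from KRT17. In the KRT6 set, KRT6A differs from KRT6B at all 9 positions and from KRT6C at 5. Over the whole transcript, 18.2% of the 100-base windows of KRT6A occur unchanged in another annotated gene, against 6.05% for KRT14, 7.12% for KRT16, 0.353% for KRT17 and 0% for KRT19. The study sequenced 150 bases from each end of a fragment. At 150 bases the share was 9.26% for KRT6A, 0.605% for KRT14, 0.729% for KRT16 and 0% for KRT17 and KRT19. How reads with several matches were counted is not given in the sources used here.

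Across the members, KRT13 and KRT6A were lower in Dsg2KO cells, KRT8 and KRT18 were modestly higher, and KRT14 was close to absent from both lines. Of the 10 genes, 9 had enough counts for a test, and 8 of these had at least 10 counts in every library. Of the 9, 2 were called lower and 0 higher, where 6.03% of all genes tested were called, 2.99% as higher and 3.03% as lower. By adjusted p-value alone 5 of the 9 passed, where 29.6% of all genes tested did. The libraries of the groups did not overlap for 5 of the 9, where this held for 42.6% of all genes tested. The median log2 fold change was -0.11 over the 9 members and -0.0048 over all genes tested.

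**Figure D1:**
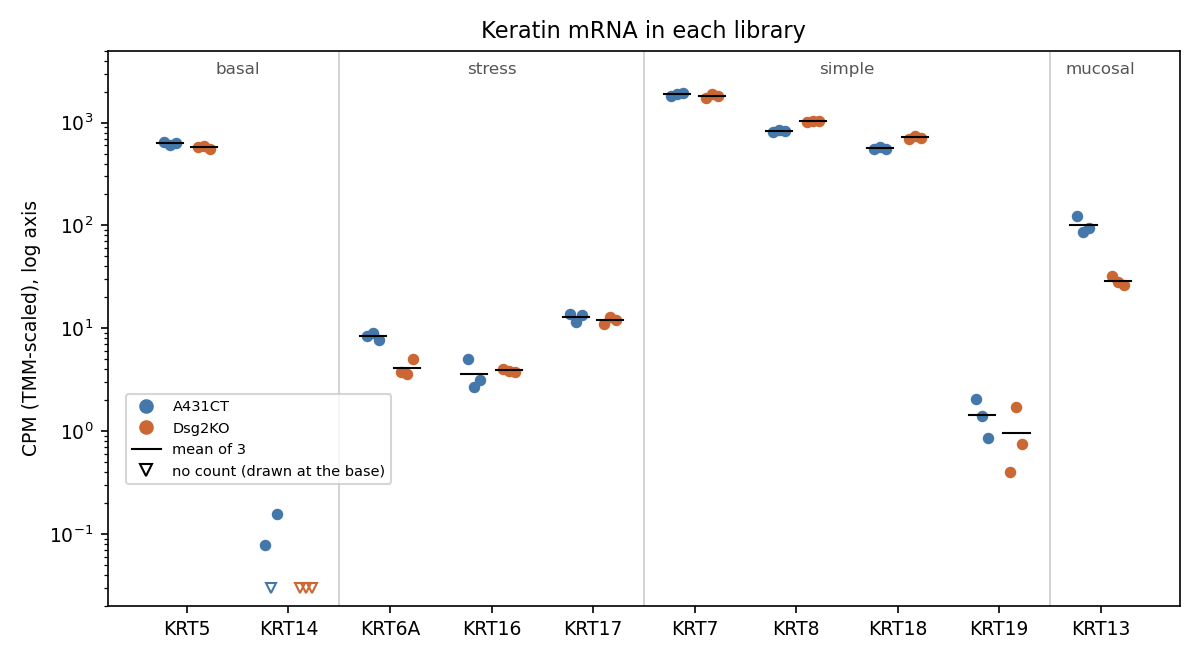
CPM of the 10 keratins in each of the 6 libraries on a log axis, with the mean of the 3 libraries of a line as a bar and libraries without a count as open triangles at the base. KRT7 lies highest, KRT13 and KRT6A are separated between the lines, and KRT14 had no count in 4 of 6 libraries.

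Of the basal set, the type II chain was expressed and the type I chain was not detectable beyond a few counts. KRT5 lies on chromosome 12 from 52514575 to 52520530 (GRCh38, minus strand, 9 exons). The A431CT libraries had 644, 609.9 and 636 CPM of KRT5, and the Dsg2KO libraries 583, 587 and 554 CPM. All Dsg2KO libraries lay below all controls, by little. The log2 fold change of KRT5 was -0.13 ± 0.04 (SE), with an adjusted p of 0.0115 (edgeR), under the fold change minimum, and without A431CT replicate 1 the adjusted p was 0.0624 (edgeR).

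KRT14, the basal type I partner, lies on chromosome 17 from 41582279 to 41586895 (minus strand, 8 exons). Its raw counts were 1, 0 and 2 in the A431CT libraries and 0 in each Dsg2KO library. At these depths 3 counts equal 0.183 to 0.236 CPM, a limit that covers counting error only, and no fold change is given for KRT14. The name of a basal pair thus did not hold for either line. TP63, a transcription factor of basal keratinocytes, was at 210.3 ± 3.28 CPM in A431CT and 207 ± 9.63 CPM in Dsg2KO cells (SD, n = 3).

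Of the stress keratins, which were all low, KRT6A was called and its type I partners were not. KRT6A lies on chromosome 12 from 52487176 to 52493257 (minus strand, 9 exons). The A431CT libraries had 8.49, 9.06 and 7.75 CPM of KRT6A, and the Dsg2KO libraries 3.75, 3.55 and 5.07 CPM, from raw counts of 56 to 123. The groups were separate, and KRT6A fell to 48.9% of its control level. Its log2 fold change was -1.03 ± 0.18 (SE), with an adjusted p of 5.62e-04 (edgeR), lower in 3 of 3 Dsg2KO libraries. The near copies KRT6B and KRT6C had at most 2 counts and 1 count in a library, and the sum of all KRT6 genes had a log2 fold change of -1.02.

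KRT16 lies on chromosome 17 from 41609778 to 41615899. The A431CT libraries had 5.03, 2.65 and 3.10 CPM of KRT16, and the Dsg2KO libraries 4.02, 3.85 and 3.77 CPM. The Dsg2KO values fell within the range of the controls. The log2 fold change of KRT16 was 0.11, with a 95% interval from -0.37 to 0.60. Its sign turned without A431CT replicate 2 (-0.07). The sum of KRT14, KRT16 and KRT17, to which KRT17 gave most counts, had a log2 fold change of -0.06.

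KRT17, its neighbour on chromosome 17 (41619442 to 41624842), had 13.8, 11.5 and 13.5 CPM in the A431CT libraries against 11.1, 12.8 and 12 CPM in the Dsg2KO libraries. These overlapped. The log2 fold change of KRT17 was -0.11, with a 95% interval from -0.34 to 0.12, so a decrease as large as that of KRT6A lay outside the intervals of both partners.

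Among the simple epithelial keratins, KRT8 and KRT18 were higher in Dsg2KO cells. KRT8, the type II chain, had 814, 856 and 834 CPM in the A431CT libraries against 1018, 1043 and 1034 CPM in the Dsg2KO libraries. KRT18, its type I partner, had 557, 585 and 552 CPM against 697, 743 and 713 CPM. For both genes every Dsg2KO library lay above every control. The log2 fold change was 0.31 ± 0.03 (SE) for KRT8, with an adjusted p of 4.2e-06 (edgeR), and 0.35 ± 0.04 (SE) for KRT18, with an adjusted p of 5.55e-06 (edgeR). These are increases of 23.6% and 27.1%, below the fold change minimum.

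KRT8 and KRT18 are neighbours on chromosome 12, KRT8 on the minus strand from 52897187 to 52949954 and KRT18 on the plus strand from 52948871 to 52952906. Annotated KRT8 transcripts reach over KRT18, and 18.5% of the 100-base windows and 12.3% of the 150-base windows of KRT18 also lie in them. Whether reads were counted by strand is not given in the sources used here, and without strand the reads from this stretch cannot be told apart.

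KRT7 and KRT19 did not pass the test. KRT7, on chromosome 12 from 52232520 to 52252186, was the most abundant member. The A431CT libraries had 1834, 1914 and 1921 CPM of KRT7, and the Dsg2KO libraries 1732, 1911 and 1812 CPM, which overlapped. Its log2 fold change was -0.06, with a 95% interval from -0.12 to 0.01. An antisense gene, KRT7-AS, holds 8.32% of the 100-base windows and 5.22% of the 150-base windows of KRT7. KRT7-AS was not found by name in the count table.

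KRT19, on chromosome 17 from 41523617 to 41528308, was near the lower limit of detection. Its raw counts were 26, 19 and 11 in the A431CT libraries against 6, 28 and 12 in the Dsg2KO libraries. The libraries of both lines spread widely and overlapped. The log2 fold change of KRT19 was -0.57, with a 95% interval from -1.50 to 0.37, so that neither a decrease nor an increase was detectable at this depth.

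KRT13, the mucosal type I chain, had the largest change of the members tested. It lies on chromosome 17 from 41500981 to 41505705 (minus strand, 8 exons). The A431CT libraries had 124, 87.1 and 94.4 CPM of KRT13, and the Dsg2KO libraries 32.3, 27.9 and 26.1 CPM. The highest Dsg2KO library was far below the lowest control, and KRT13 fell to 28.2% of its control level. Its log2 fold change was -1.83 ± 0.11 (SE), with an adjusted p of 3.55e-08 (edgeR), lower in 3 of 3 Dsg2KO libraries. An antisense RNA gene annotated over KRT13 holds 14.6% of its 100-base windows and 11.9% of its 150-base windows. This antisense gene was not found by name in the count table.

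**Figure D2:**
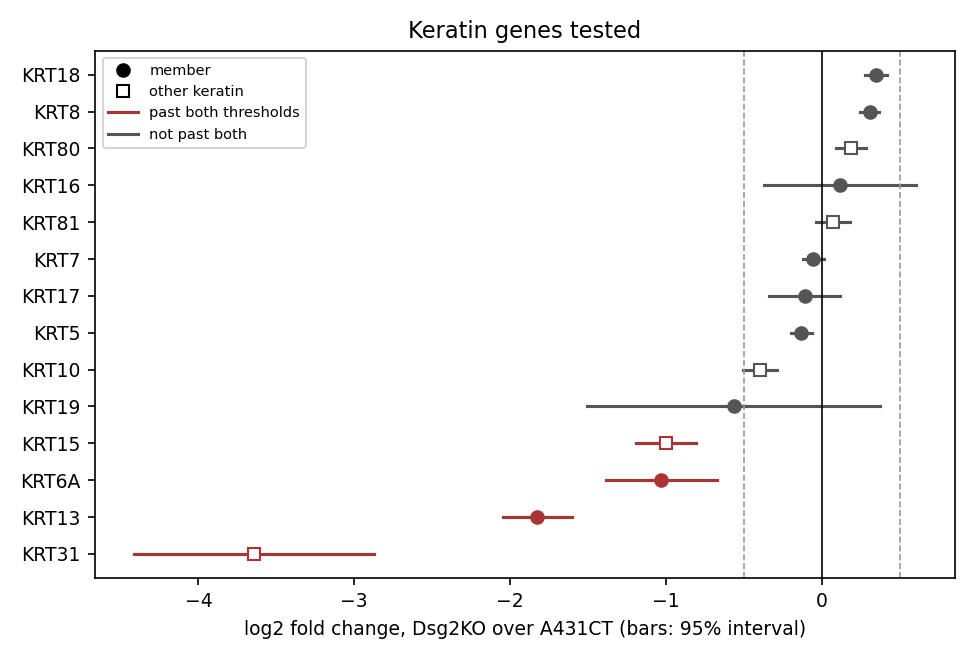
Log2 fold change of Dsg2KO over A431CT cells for the 14 keratin genes tested, with 95% intervals, members as filled circles and other keratins as open squares, and dashed lines at the fold change minimum of 0.5. The 4 genes past both thresholds (red) are KRT31, KRT13, KRT6A and KRT15, all lower, and KRT18 and KRT8 are the highest.

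The table held 44 further keratin genes, of which 31 had at most 3 counts in every library and 5 were tested. Of the 5, KRT15 and KRT31 were called lower, and KRT31 could be tested only because of its counts in the controls. Over all genes tested, 3.03% were called lower. KRT15, a type I chain of basal cells, had 214, 178 and 155 CPM in the A431CT libraries against 89.9, 103 and 79.8 CPM in the Dsg2KO libraries. The groups were separate, and its log2 fold change was -1.0 ± 0.10 (SE), with an adjusted p of 3.47e-06 (edgeR). KRT31, a type I chain known from hair, had raw counts of 37, 36 and 34 against 3, 4 and 3. It was not tested when at least 10 counts were required in every library, and its log2 fold change was -3.64 ± 0.39 (SE), with an adjusted p of 6.54e-06 (edgeR).

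The other 3 tested keratins were KRT10, KRT80 and KRT81. KRT10, the type I chain of suprabasal keratinocytes, had a log2 fold change of -0.40 and an adjusted p of 7.85e-05 (edgeR), under the fold change minimum. KRT80, a type II chain, had 0.18 and an adjusted p of 0.0102 (edgeR), which was 0.0513 without Dsg2KO replicate 3. KRT81, a type II chain also known from hair, was at 842 ± 68.5 CPM in A431CT and 884 ± 64.7 CPM in Dsg2KO cells (SD, n = 3) and did not pass.

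The type I genes other than KRT18 lie in a cluster on chromosome 17 (40654665 to 41624842). Among its tested keratins, in the order of the chromosome, KRT10 had a log2 fold change of -0.40, KRT31 of -3.64, KRT13 of -1.83, KRT15 of -1.0, KRT19 of -0.57, KRT16 of 0.11 and KRT17 of -0.11. The genes around this cluster were slightly lower, with a median of -0.10 on the log2 scale over 91 tested genes within 2 Mb on either side, keratins left out. Of these 91 genes 18 were higher, 2 were called higher and 3 were called lower. Around the type II cluster on chromosome 12 (52168996 to 52952906) the median over 49 genes was 0.0023, and 25 of them were higher. The part of the regional shift in the keratin differences was not tested.

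Levels of different keratins were compared as CPM per kb of the canonical transcript. In A431CT cells the order was KRT7 (1163 ± 29.6), KRT8 (468 ± 11.8), KRT18 (399.8 ± 12.4), KRT5 (281 ± 7.90), KRT13 (59.5 ± 11.5), KRT17 (8.53 ± 0.831), KRT6A (3.65 ± 0.286), KRT16 (2.17 ± 0.762), KRT19 (1.03 ± 0.429) and KRT14 (0.0476 ± 0.0474; all SD, n = 3). The ranges of neighbours in the order did not overlap in either line. In Dsg2KO cells KRT16, at 2.34 ± 0.0783 CPM per kb, stood above KRT6A, at 1.79 ± 0.357, and the rest of the order was the same. This swap rests on low raw counts in the Dsg2KO libraries, 60, 63 and 61 of KRT16 and 56, 58 and 82 of KRT6A. In Dsg2KO replicate 3 the log2 ratio of KRT6A to KRT16 was only -0.05.

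**Figure D3:**
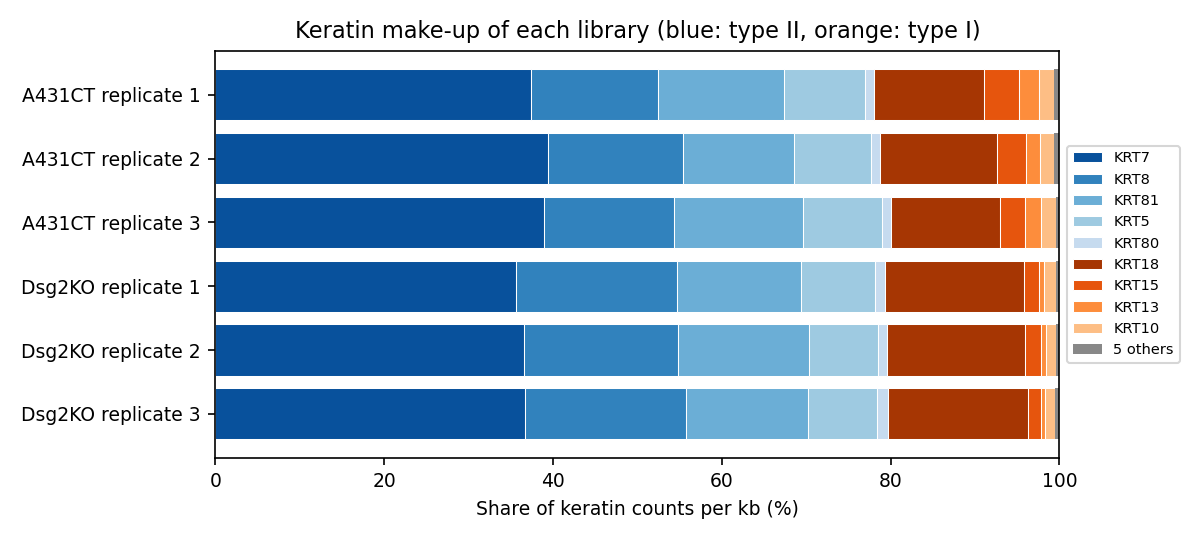
Share of each keratin in the summed counts per kb of the 14 tested keratins, as stacked bars for the 6 libraries, with type II chains in blue and type I chains in orange. KRT7 takes 38.5% in A431CT and 36.3% in Dsg2KO cells on average, KRT18 13.3% and 16.5%, and KRT15 3.53% and 1.72%.

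The make-up of the keratin transcripts followed these levels. KRT8 held 15.5% ± 0.476 of the counts per kb of the 14 tested keratins in A431CT and 18.8% ± 0.501 in Dsg2KO cells, and KRT18 13.3% ± 0.509 and 16.5% ± 0.141. KRT13 held 1.97% ± 0.376 and 0.546% ± 0.0715, and KRT15 3.53% ± 0.582 and 1.72% ± 0.172 (SD, n = 3). The 10 members together took 0.402% ± 0.0046 of all counts in A431CT and 0.423% ± 0.0124 in Dsg2KO cells (SD, n = 3, two-sided exact permutation p = 0.1). All keratins together, an alternative chosen after seeing the data, took 0.528% ± 0.00495 and 0.544% ± 0.0188 (SD, n = 3). The libraries overlapped for all keratins (exact permutation p = 0.2). With 3 libraries against 3 the exact permutation test cannot go below p = 0.1.

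Type II transcripts were in excess over type I transcripts in both lines. Among the members, the type II counts per kb were 4.07 times the type I counts in A431CT cells and 3.65 times in Dsg2KO cells. The log2 ratio was 1.97, 2.03 and 2.08 in the A431CT libraries against 1.86, 1.87 and 1.87 in the Dsg2KO libraries, which did not overlap. With all 14 tested keratins, an alternative chosen after seeing the data that adds KRT10, KRT15, KRT31, KRT80 and KRT81, the ratios were 3.78 and 3.90, the libraries overlapped, and the difference turned from -0.16 to 0.05 on the log2 scale.

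Within partner sets, both ratios with KRT6A were lower in every Dsg2KO library than in any control. They use the KRT6A counts already tested above and are not separate evidence. The log2 ratio of KRT6A to KRT17 was -1.31, -0.95 and -1.40 in the A431CT libraries against -2.17, -2.45 and -1.85 in the Dsg2KO libraries. That of KRT6A to KRT16 was 0.28, 1.30 and 0.84 against -0.58, -0.60 and -0.05. Neither overlapped. KRT8 to KRT18 had a log2 ratio of 0.23 ± 0.03 in A431CT and 0.19 ± 0.03 in Dsg2KO cells (SD, n = 3), a difference of -0.04 that was small beside the rise of either gene.

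These 3 ratios and the type II to type I ratio of the members reached the smallest possible value, and each had an adjusted p of 0.125 over 5 ratios (exact permutation). KRT7 to KRT19 overlapped, with an exact permutation p of 0.4. Simple to basal keratins had a log2 ratio of 2.85 ± 0.07 in A431CT and 3.10 ± 0.06 in Dsg2KO cells (SD, n = 3, adjusted p = 0.2 over 2 ratios, exact permutation). Stress to basal keratins had -4.30 ± 0.10 and -4.42 ± 0.10 and overlapped (SD, n = 3, exact permutation p = 0.3). With KRT14 close to absent, the basal sum was in effect KRT5. The largest part was KRT7 in the simple sum and KRT17 in the stress sum.

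**Figure D4:**
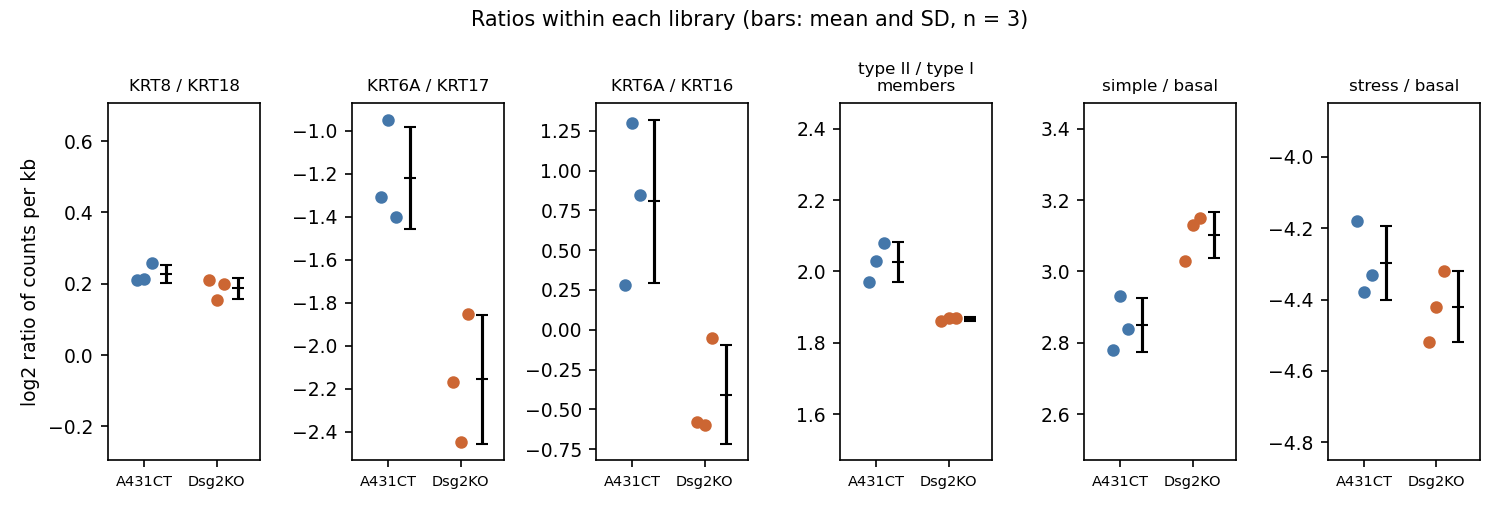
Log2 ratios of counts per kb within each library, with the mean and SD of 3 libraries beside the points; each panel has its own axis, and every axis spans at least 1 log2 unit. The KRT6A ratios are separated between the lines, the means of KRT8 to KRT18 differ by only -0.04, and stress to basal keratins overlap.

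Keratin filaments reach the membrane through plaque and linker proteins. Of 11 such genes, 10 were tested, and 0 were called by edgeR or DESeq2, with 6 at an unadjusted p below 0.05 (edgeR). By adjusted p-value alone 5 were higher and 1 was lower, where 29.6% of all genes tested passed. The median log2 fold change was 0.14. The higher genes were DSP (desmoplakin, log2 fold change 0.18), PKP2 (plakophilin-2, 0.25), PPL (periplakin, 0.22), EVPL (envoplakin, 0.13) and PLEC (plectin, 0.15). The lower gene was PERP (-0.28), a membrane protein of desmosomes. PLEC no longer passed without A431CT replicate 1 or 2 or Dsg2KO replicate 2 or 3. JUP, the gene of plakoglobin, was at 501 ± 8.88 and 513 ± 27.6 CPM (SD, n = 3) and did not pass.

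Of 10 genes whose proteins bind keratins or act on their turnover, 8 were tested and 1 was called. Over all genes tested, 6.03% were called. KLHL24, a ubiquitin ligase adaptor that targets KRT14, was at 14.2 ± 1.51 CPM in A431CT and 20.1 ± 1.29 CPM in Dsg2KO cells (SD, n = 3). Its log2 fold change of 0.51 was below the minimum without A431CT replicate 2 (0.48), A431CT replicate 3 (0.46) or Dsg2KO replicate 2 (0.47). By adjusted p-value alone 3 genes were lower: SFN, the epithelial 14-3-3 protein (log2 fold change -0.46), TCHP (trichoplein, -0.19) and FAM83H (-0.13). Of all genes tested, 29.6% passed the adjusted p-value alone. FAM83H no longer passed with library totals only or without A431CT replicate 1 or 3 or Dsg2KO replicate 1 or 2. The median of the list was -0.08.

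Of 22 transcription factors tied to keratin genes, 18 were tested and 0 were called by edgeR or DESeq2, with 6 at an unadjusted p below 0.05 (edgeR). By adjusted p-value alone 5 of the 18 passed, a share close to the 29.6% of all genes tested that did. These 5 were higher and 0 were lower, namely KLF4 (log2 fold change 0.26), TFAP2C (0.25), GRHL1 (0.32), SOX9 (0.25) and RARG (0.14). TP63 and STAT3, the most abundant of the list, had -0.02 and -0.04 and did not pass. The median of the list was 0.02.

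Of 21 genes of wounded keratinocytes, 9 were tested, 3 were called higher and 1 lower, with a median log2 fold change of 0.32. Over all genes tested, 2.99% were called higher and 3.03% lower. PLAU (urokinase) and HBEGF (a ligand of the EGF receptor) rose with log2 fold changes of 0.62 and 0.56, and SERPINB13, an epidermal protease inhibitor, fell with -0.88. LCN2 (lipocalin-2) and ITGA5 (an integrin chain) had 0.44 and 0.27 and passed the adjusted p-value alone. Of 22 suprabasal differentiation genes in the table, 9 were tested and 0 were called by edgeR's quasi-likelihood test or DESeq2, with 3 at an unadjusted p below 0.05 (edgeR) and a median of 0.06. The call count was 1 with edgeR's likelihood ratio test and with at least 10 counts in every library (CDSN, the gene of corneodesmosin), and 1 without Dsg2KO replicate 1 (IVL, the gene of involucrin). KRT10 alone passed the adjusted p-value, where 29.6% of all genes tested did. KLK5, a kallikrein protease, was the most abundant at 118 ± 5.33 and 124 ± 6.17 CPM (SD, n = 3). KRT1 and KRT2, the type II partners of KRT10, had no count in any library.

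**Figure D5:**
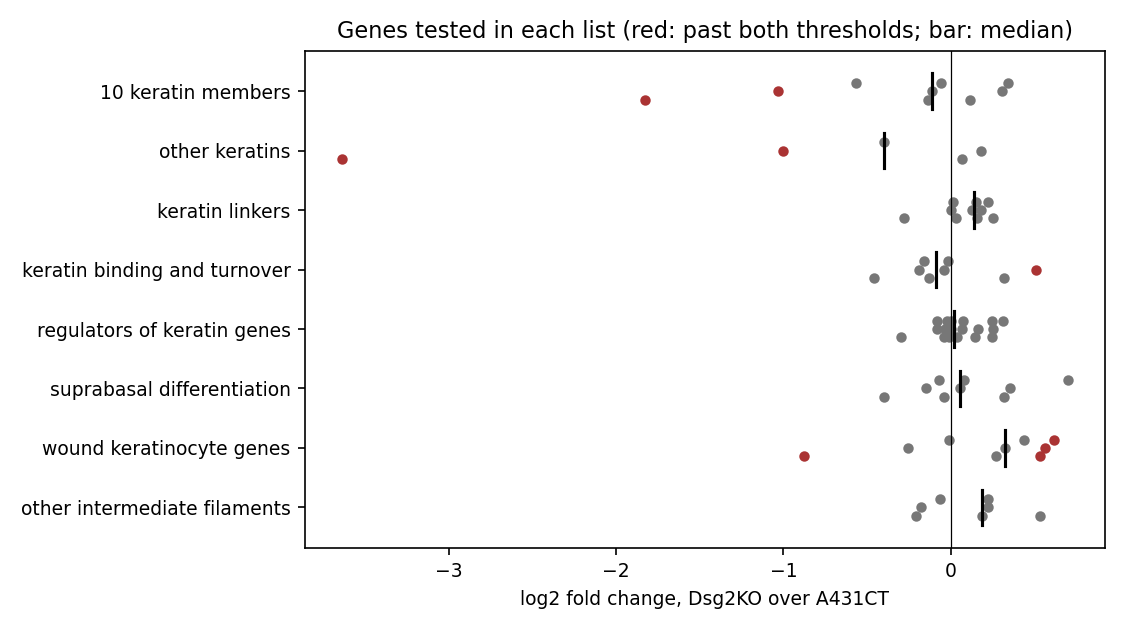
Log2 fold changes of the tested genes in each list, Dsg2KO over A431CT cells, 1 point per gene with called genes in red and a bar at the median of each list. The called keratins lie on the lower side, and 3 of the 4 called genes of wounded keratinocytes lie on the higher side. Of all genes tested, 2.99% were called higher and 3.03% lower.

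Markers of cell types were read beside these results. In bulk RNA, fewer cells of a type and less RNA per cell cannot be told apart. Of 10 keratinocyte markers, KRT14 and PKP1 had at most 3 counts in every library, 8 were tested and 0 were called (5 at an unadjusted p below 0.05, edgeR), and their sum was 2389 to 2463 CPM in A431CT and 2165 to 2217 CPM in Dsg2KO libraries. At most 3 counts were also found for PDGFRA, DCN, LUM and THY1 of 7 fibroblast markers, MLANA, TYR, DCT and TYRP1 of 6 melanocyte markers, CD3E of 7 leukocyte markers, and KDR and TEK of 5 endothelial markers. The fibroblast sum was 0.314 to 0.884 CPM against 2.87 to 4.69 CPM, with TWIST2 called higher, and the endothelial sum 8.52 to 11.5 against 15.1 to 15.7 CPM, with PECAM1 and CDH5 called higher. The leukocyte sum was 775 to 809 against 655 to 673 CPM, mostly CSF1R and CD68, of which CD68 was called lower. The melanocyte sum was 17.9 to 18.7 against 14.1 to 16.9 CPM. Their part in the keratin differences was not tested.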

How the data were processed

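Per the study's methods, the authors removed low-quality reads and adapters, aligned the rest to GRCh38 and quantified genes in CLC Genomics Workbench (version 23). The deposited table holds raw counts without normalization. Annotation, strand setting and the handling of reads with several matches are not given in the sources used here.

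Columns were mapped to line and replicate by the labels. Counts were tested with edgeR 4.0.16 in R 4.3.3, with TMM factors, filterByExpr (minimum count 10, minimum total 15) and quasi-likelihood fits without covariates, checked on simulated data. Standard errors come from the F statistic, and 95% intervals are normal. Replicate numbers were not used as pairs, since no pairing is stated. Correlations of same-numbered residuals over all genes tested were between -0.0027 and 0.0539, which does not settle pairing for single genes. Alternatives were other size factors, filters and fold change minima, a likelihood ratio test, DESeq2 1.42.0, a replicate block, summed near copies and each library left out. Ratios were tested by exact permutation (SciPy 1.17.1). The planned ratio of KRT5 to KRT14 was not computed, since KRT14 was at 0 in 4 libraries, which left 5 ratios in that family. GENCODE version 44 (GRCh38) placed 19463 of 21462 symbols.

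The members and gene lists were chosen with earlier results of these data known. Genes named are the members, DSG2, called keratins and the 5 most abundant other keratins, and in each further list up to 6 called genes and the 2 most abundant others. Other genes past the adjusted p-value alone, CDSN, IVL, VIM and the markers named fell outside this rule and were chosen after their values were seen. Values of single genes of the wounded keratinocyte and leukocyte lists that are not named are not reported here.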

Additional observations from a re-analysis of the deposited data

How the results depend on the processing

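The fold change minimum moved the counts of called genes most, by construction. Without a minimum 3802 genes passed (1835 higher, 1967 lower), with 5 keratin members and 28 genes of the other lists (7 at the minimum of 0.5). A minimum of 1 left 250 genes (137 higher, 113 lower), 2 members and 2 genes of the other lists. KRT13 and KRT6A were called under every alternative run, with log2 fold changes from -1.93 to -1.66 and from -1.21 to -0.93. With a replicate block 769 genes and 2 keratin members were called, and no call of a named gene changed. The labels state no pairing by replicate number. KRT14, KRT16 and KRT17 summed, mostly KRT17 counts, had a log2 fold change of -0.0649. The sign of KRT16 turned without A431CT replicate 2, with a range from -0.0659 to 0.4323 over left-out libraries. JUP ranged from -0.009 to 0.064 and TP63 from -0.0618 to 0.0027 in the same way, and TP63 was at 0.0002 with library totals only. None of these passed the test. The type II to type I difference was 0.045 with all tested keratins, chosen after seeing the data, and the median around the type II cluster was 0.0281 within 5 Mb. KRT31 could not be tested with at least 10 counts in every library. The cause of these shifts was not tested. Low counts limit KRT14, KRT16 and KRT19, and 3 libraries a line limit every ratio.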

Other observations

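Of 16 other intermediate filament genes, 7 were tested and 0 were called by edgeR or DESeq2, with 3 at an unadjusted p below 0.05 (edgeR) and a median log2 fold change of 0.19. The lamin genes LMNA and LMNB1 had log2 fold changes of -0.17 and -0.21, and SYNM, the gene of synemin, had 0.23. These 3 passed the adjusted p-value alone, where 29.6% of all genes tested did. LMNB2 was at 949 ± 13.2 CPM in A431CT and 909 ± 23.9 CPM in Dsg2KO cells, and VIM, the filament protein of mesenchymal cells, at 1.78 ± 0.485 and 2.58 ± 1.09 CPM (SD, n = 3). Neither passed.

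KRT81 was at 437 ± 35.5 CPM per kb in A431CT and 458 ± 33.5 CPM per kb in Dsg2KO cells, against 281 ± 7.90 and 257 ± 7.95 CPM per kb for KRT5 (SD, n = 3). Of the 100-base windows of KRT81, 30.3% occur in another annotated gene, among them KRT86. KRT86 was not found by name in the count table. For 150-base windows of KRT81 the share was 25.6%. How reads from these windows were assigned was not tested.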
